A study of Homo sapiens with 8 samples.

Results

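The miRNA profiles of BT474 and SKBR3 cells, a pair of established human breast cancer lines that both overexpress the receptor HER2 (ERBB2), were set against each other on 7 of the 8 arrays of the study. The series labels give BT474 cells as positive for the estrogen receptor (ER) and SKBR3 cells as negative for it. They give both lines as positive for the progesterone receptor, while the methods of the study list SKBR3 cells as negative. Each line had received either PBS or 6 μg/mL trastuzumab, an antibody against HER2, for 144 h. BT474 was represented by 4 arrays (PBS replicates 1 and 2, trastuzumab replicates 1 and 2) and SKBR3 by 3 (PBS replicate 2, trastuzumab replicates 1 and 2). The file labelled SKBR3 PBS replicate 1 was left out, since it was identical to that of BT474 PBS replicate 1.

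The lines were grown in different media (RPMI 1640 with insulin for BT474, McCoy's 5A for SKBR3), and the BT474 arrays lay in columns 1 and 2 of the slide and the SKBR3 arrays in columns 3 and 4. Line, medium and slide column therefore cannot be told apart. PBS arrays lay in slide row 2 and trastuzumab arrays in row 1, so that a difference within a treatment is also a difference within a row. The methods name biological replicates and do not say whether they came from separate stocks of a line. The p-values therefore measure the spread between these cultures and cannot be taken to cover other stocks of the lines.

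miRNAs are short RNAs cut from a hairpin, whose 5p or 3p arm is loaded into an Argonaute protein and guides it to messenger RNAs. Bases 2 to 8 of the miRNA, the seed, pair with the target, so that miRNAs of 1 seed family share many targets even when they come from different chromosomes. Hairpins that lie close together are often cut from 1 primary transcript and tend to be made together. In breast epithelium the miR-200 family holds down the repressors ZEB1 and ZEB2 and thereby keeps E-cadherin expressed, and levels of several miRNAs follow the hormone receptors. The prefix hsa- is left out of the names here.

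The sequences below belong to the families on which the comparison turned. They are the RefSeq mature sequences (GRCh38.p14), written 5′ to 3′, with the seed in capitals. The miR-200 family has 2 seeds, and its hairpins lie in 2 clusters. The cluster at chr1:1167104-1169087 (plus strand) holds miR-200b, miR-200a and miR-429, and that at chr12:6963699-6964191 (plus strand) holds miR-200c and miR-141.
miR-200b-3p: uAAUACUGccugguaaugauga
miR-429: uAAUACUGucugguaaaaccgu
miR-200c-3p: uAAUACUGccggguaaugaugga
miR-200a-3p: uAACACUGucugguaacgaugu
miR-141-3p: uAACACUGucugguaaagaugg

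Members of the next family share the seed AGUGCAA. Their hairpins are MIR301A (chr17:59151136-59151221, minus strand), MIR454 (chr17:59137758-59137872, minus strand) and MIR130B (chr22:21653304-21653385, plus strand).
miR-301a-3p: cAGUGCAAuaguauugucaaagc
miR-454-3p: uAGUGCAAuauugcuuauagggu
miR-130b-3p: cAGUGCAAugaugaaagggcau

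The miR-29 family has the seed AGCACCA and is encoded at chr7:130876747-130877539 and chr1:207801852-207802523 (both minus strand).
miR-29a-3p: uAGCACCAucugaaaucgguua
miR-29b-3p: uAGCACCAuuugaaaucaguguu
miR-29c-3p: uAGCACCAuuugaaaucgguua

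Shown last are miR-31-5p (hairpin at chr9:21512115-21512185, minus strand), which was detected in SKBR3 cells only, and the 5p arm of miR-4728, whose hairpin (chr17:39726495-39726561, plus strand) lies inside the ERBB2 gene.
miR-31-5p: aGGCAAGAugcuggcauagcu
miR-4728-5p: uGGGAGGGgagaggcagcaagca

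Each of the 7 arrays measured 2006 human miRNAs, of which 201 to 256 were detected. BT474 arrays detected 247, 254, 248 and 256 miRNAs and SKBR3 arrays 203, 218 and 201 (mean ± SD 251.25 ± 4.43, n = 4, against 207.33 ± 9.29, n = 3). The difference of 43.9 miRNAs had p = 0.0571 in a two-sided exact permutation test, the smallest p that 4 arrays against 3 allow. Before normalization the summed signal of an array was 446651 to 606660 in BT474 and 246495 to 320578 in SKBR3, and the lowest detected signal of an array lay between 19.3 and 28.3. Counted at the highest of these limits, BT474 arrays held 244 to 254 miRNAs and SKBR3 arrays 199 to 217. An array averages over all its cells, so that fewer cells with a miRNA and less of it per cell cannot be told apart. Precision is set by how few arrays there are.

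Over the arrays, 207 miRNAs were detected in both lines, 80 in BT474 only and 20 in SKBR3 only, each on at least 1 array. Within a line the arrays correlated at a Spearman coefficient of 0.933 to 0.984 (BT474) and 0.942 to 0.988 (SKBR3), and between the lines at 0.740 to 0.771, as a description over miRNAs. The arrays parted by line along the first principal component, which held 81.4% of the variance.

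To ask which miRNAs differ between the lines, the 7 arrays were brought to a common distribution of summed signals by quantile normalization, low values were raised to a floor of 10 and log2 was taken, and the line was fitted with the treatment as a covariate (limma). A miRNA was called when its Benjamini-Hochberg adjusted p was under 0.05 and its fold change above 2. Differences are BT474 minus SKBR3 on the log2 scale, so that a positive value is higher in BT474. Of 304 miRNAs tested, 123 were called (40.5%), 66 higher in BT474 (21.7%) and 57 higher in SKBR3 (18.8%). All 123 had the same direction within the PBS arrays and within the trastuzumab arrays. The values of the lines did not overlap for 175 miRNAs (57.6%), 85 with BT474 above (28%) and 90 with SKBR3 above (29.6%). By contrast, the treatment term of the same fit called 10 miRNAs (3.29%).

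The split between the directions depended on the scaling. The median difference over the miRNAs detected on all 7 arrays was -0.43 after quantile normalization, -0.26 after scaling to the 75th percentile and 0.68 without normalization. With 75th percentile scaling 68 miRNAs were higher in BT474 and 35 in SKBR3 (66.02% higher in BT474, against 53.66% in the main fit), and without normalization 112 and 9 (92.56%). Spot signals corrected with normexp gave 38 and 20 (65.52%), and the processed spot signals 62 and 90 (40.79%). Quantile and 75th percentile scaling shared 98 calls, 63 higher in BT474 and 35 higher in SKBR3, and all 3 scalings shared 72, of which 63 were higher in BT474 and 9 in SKBR3. No called miRNA changed sign under 75th percentile scaling, and 10 of those higher in SKBR3 did so without normalization.

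**Figure D1:**
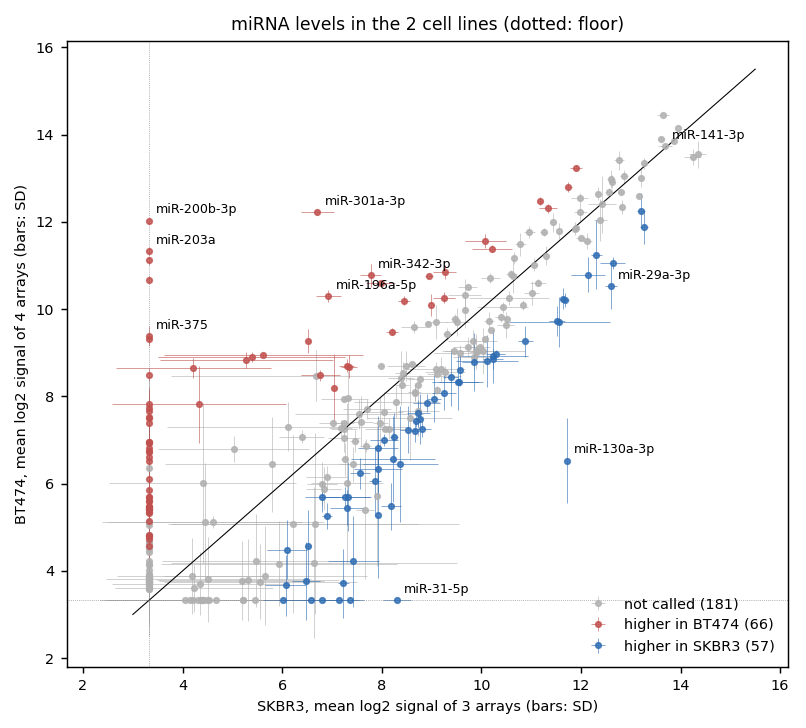
Mean normalized log2 signal of the 304 tested miRNAs in SKBR3 (horizontal axis, 3 arrays) and BT474 (vertical axis, 4 arrays), with the SD of each line as bars and the floor as dotted lines. The 66 miRNAs called higher in BT474 (red) include a column at the SKBR3 floor, and the 57 called higher in SKBR3 (blue) lie mostly close below the diagonal.

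The 2 directions differed in how the called miRNAs were detected. Of the 66 miRNAs higher in BT474, 36 were detected on all 4 BT474 arrays and on no SKBR3 array, 21 on all 7 arrays and 9 in another pattern. Of the 57 higher in SKBR3, 45 were detected on all 7 arrays, 6 on the 3 SKBR3 arrays alone and 6 in another pattern. Among the 172 tested miRNAs that were detected on all 7 arrays, 21 were thus called higher in BT474 (12.2%) and 45 in SKBR3 (26.2%). For a miRNA detected in 1 line alone only a lower bound on the fold is given, the mean of the line with signal against the mean of the lowest detected signals of the other line's arrays (or the miRNA's own value there, where higher). After normalization that lowest detected signal lay at a log2 of 5.48 to 6.21 on the SKBR3 arrays and 3.32 to 4.34 on the BT474 arrays. On BT474 PBS replicate 2 and trastuzumab replicate 2 it was the floor itself. Before normalization it was 22.6 to 26.3 on the BT474 arrays and 19.3 to 28.3 on the SKBR3 arrays. The limits of miRNAs found in SKBR3 alone thus hold on the normalized scale only. Of the 36 miRNAs called in BT474 and detected on its arrays alone, 14 had a limit of no more than 1 and are given no fold. The adjusted p beside a limit belongs to the fit with undetected values at the floor. It does not test the limit, and the values at the floor have no spread. Where only some arrays of a line detected a miRNA, the others likewise stood at the floor, so that its difference is no measured fold.

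The largest limits belonged to epithelial miRNAs of BT474 cells. miR-200b-3p, which represses ZEB1 and ZEB2, had normalized log2 signals of 12.02, 12.06, 12.06 and 11.96 on the BT474 arrays (PBS 1, PBS 2, trastuzumab 1, trastuzumab 2) and was not detected on the SKBR3 arrays. Its level was at least 70.0-fold higher in BT474. In the fit with the SKBR3 values at the floor its adjusted p was 1.1e-07 (limma). miR-200a-3p stood at 11.17, 11.17, 10.97 and 11.17 and miR-429 at 10.68, 10.78, 10.59 and 10.64 on the same arrays, again with no detection in SKBR3. Their limits were at least 37.3-fold and at least 27.4-fold (adjusted p = 1.18e-07 for each in the fit with the floor). The 3 miRNAs of the chromosome 1 cluster were thus high on every BT474 array and detected on no SKBR3 array.

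The chromosome 12 cluster of the same family was detected on all 7 arrays. miR-141-3p, which has the seed of miR-200a-3p, had log2 signals of 13.66, 13.76, 13.76 and 13.76 in BT474 and 13.76, 13.76 and 13.53 in SKBR3 (PBS 2, trastuzumab 1, trastuzumab 2). The lines overlapped, with a difference of 0.05 (95% interval -0.20 to 0.30). miR-200c-3p, which has the seed of miR-200b-3p and miR-429, stood at 12.59, 12.62, 12.62 and 12.52 in BT474 and at 13.22, 13.13 and 13.13 in SKBR3. All SKBR3 values lay above those of BT474, and the difference of -0.58 ± 0.07 (SE) was under the fold threshold (adjusted p = 0.00128). It was -0.29 with 75th percentile scaling and 0.65, in the other direction, without normalization. The SKBR3 arrays on which miR-200c-3p was detected did not detect miR-200b-3p, which shares its seed. Of the 7 tested arms of the family, 3 were called, all higher in BT474 (21.7% of all miRNAs tested were). This list and those below were chosen with earlier results of these data known.

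Other epithelial miRNAs were also detected in BT474 alone. miR-203a, a regulator of the differentiation of stratified epithelia, had log2 signals of 11.22, 11.29, 11.40 and 11.40 in BT474 (at least 43.0-fold, adjusted p = 1.15e-07). miR-205-5p, which targets ERBB3 and the ZEB repressors, stood at 6.48 and 6.31 on the PBS arrays and at 7.52 and 7.48 on the trastuzumab arrays of BT474 (at least 2.07-fold, adjusted p = 0.000162). Both were undetected on every SKBR3 array. All 3 detected members of this list (the third being miR-375) were called higher in BT474 (21.7% of all miRNAs tested were). Their summed signal before normalization was 3017.92 to 5604.53 on the BT474 arrays and 0 on those of SKBR3.

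Of the miRNAs known to go with the estrogen receptor, all 3 detected arms were called higher in the ER-positive line, against 21.7% of all miRNAs tested. miR-375, which is abundant in luminal tumors, had log2 signals of 9.16, 9.21, 9.60 and 9.56 in BT474 and was not detected in SKBR3 (at least 11.2-fold, adjusted p = 9.8e-07). miR-342-3p, encoded in an intron of EVL, stood at 10.97, 11.02, 10.64 and 10.48 in BT474 and 8.02, 7.62 and 7.70 in SKBR3. The lines did not overlap, and the difference of 2.93 ± 0.08 (SE) amounted to 7.63-fold (adjusted p = 4.47e-06). The other arm, miR-342-5p, was at 6.31 to 6.66 in BT474 and undetected in SKBR3 (at least 1.54-fold). Of the miRNAs known to target ESR1, the gene of the receptor, 4 were detected. miR-193b-3p was called higher in BT474 (difference 1.29 ± 0.09), whereas miR-22-3p (-0.73), miR-18a-5p (0.11) and miR-18b-5p (-0.28) were not called.

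The seed family AGUGCAA moved in both directions. miR-301a-3p had log2 signals of 12.15, 12.27, 12.22 and 12.22 in BT474 and 7.05, 6.66 and 6.4 in SKBR3. The difference was 5.48 ± 0.15 (SE), or 44.6-fold (adjusted p = 4.47e-06), the largest among the miRNAs detected on all 7 arrays and higher in BT474. miR-454-3p, encoded nearby on chromosome 17, stood at 9.21, 9.23, 9.45 and 9.39 in BT474 and was not detected in SKBR3 (at least 10.7-fold, adjusted p = 2.97e-07). In SKBR3 cells other members were higher. miR-130a-3p, counted with the family by its name, had log2 signals of 5.56 and 5.83 (PBS) and 7.22 and 7.50 (trastuzumab) in BT474, against 11.74, 11.69 and 11.74 in SKBR3. Its difference was -5.03 ± 0.38, or 32.7-fold higher in SKBR3 (adjusted p = 0.000224), the largest in that direction. miR-130b-3p stood at 8.26 to 8.40 in BT474 and at 10.01, 9.30 and 9.34 in SKBR3 (difference -1.28 ± 0.14, adjusted p = 0.000788).

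Seed families were formed from the 247 tested miRNAs with a matched RefSeq sequence, which leaves out miR-30d-5p and miR-130a-3p. Of 29 such families with at least 2 members (79 miRNAs), AGUGCAA was the only one with calls in both directions. With miR-30d-5p counted, the miR-30 family, given below, also had calls in both directions. Calls lay only on the side of BT474 in 9 families, only on the side of SKBR3 in 5, and 14 had none. The hairpins of the tested miRNAs found in RefSeq formed 26 clusters of neighbours within 10 kb. Of these, 9 had calls higher in BT474, 5 had calls higher in SKBR3 and 12 had none. In no cluster did the calls point in both directions. Of 27 hairpins with both arms tested, 22 had arms of the same sign and 7 had both arms called, in the same direction each time.

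The 17q22-q23 region, which is gained in many breast cancers and holds MIR301A, MIR454 and MIR21, had 3 of 4 detected arms called, all higher in BT474 (21.7% of all miRNAs tested were). miR-21-3p had log2 signals of 9.63, 9.35, 9.04 and 9.09 in BT474 and 6.54, 6.48 and 6.54 in SKBR3, a difference of 2.71 ± 0.13 (6.56-fold, adjusted p = 4.32e-05). The main arm, miR-21-5p, an oncogenic miRNA of many tumors, was at 14.44 on every BT474 array and at 13.53, 13.66 and 13.76 in SKBR3. Nearly all of its spots were saturated on every BT474 array and none on the SKBR3 arrays, so that only a bound can be given, at least 1.75-fold higher in BT474. It was the arm of the 4 that was not called. Equal values on several arrays arise from quantile normalization, which gives the same value to the same rank.

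**Figure D2:**
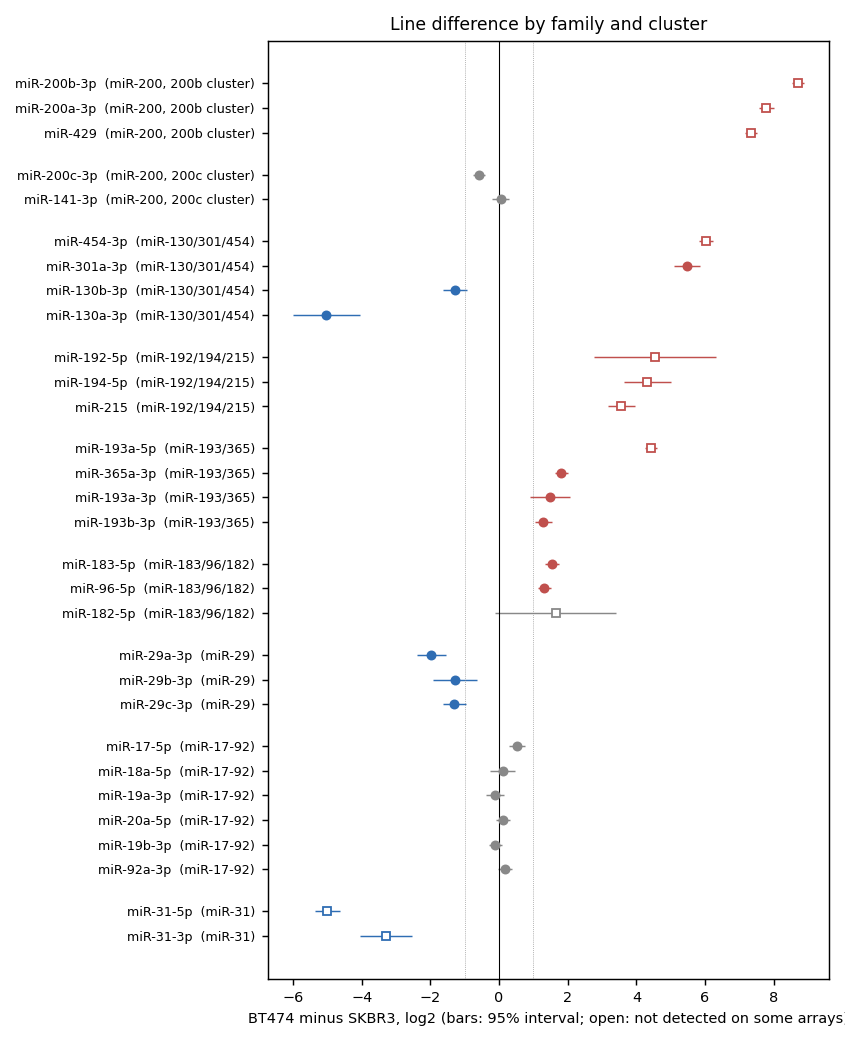
Line difference on the log2 scale (BT474 minus SKBR3, horizontal axis) with its 95% interval for members of 9 families and clusters. Red is called higher in BT474, blue higher in SKBR3 and grey not called, open squares are miRNAs not detected on some arrays, whose undetected values stand at the floor so that the point is no measured fold, and dotted lines mark a fold of 2. The miR-200b cluster and the miR-200c cluster stand apart, and the family with the seed AGUGCAA, with miR-130a-3p, runs from 5.48 (miR-301a-3p) to -5.03 among those detected on all arrays.

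The other clusters with calls for BT474 included miR-193 and miR-365, with 4 of 4 arms called higher in BT474 (21.7% of all miRNAs tested were). miR-193a-5p was at 7.70 to 7.77 in BT474 and undetected in SKBR3 (at least 3.58-fold, adjusted p = 4.61e-07). miR-365a-3p had log2 signals of 10.78, 10.72, 10.78 and 10.78 in BT474 and 9.04, 8.86 and 8.93 in SKBR3 (difference 1.81 ± 0.08, 3.51-fold). miR-193a-3p differed by 1.49 ± 0.23. In the cluster of miR-183, miR-96 and miR-182, which is active in sensory organs and in many carcinomas, 3 of 5 arms were called. All 3 were higher in BT474, against the same 21.7%. Of these, miR-183-3p was detected in BT474 alone with a limit under 1. miR-183-5p stood at 11.02, 10.97, 10.72 and 10.72 in BT474 and 9.51, 9.07 and 9.21 in SKBR3 (1.54 ± 0.08). miR-96-5p differed by 1.31 ± 0.07, and miR-182-5p, undetected on 1 SKBR3 array and there at the floor, by 1.65 with an interval of -0.11 to 3.42.

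Of the miRNAs encoded among the HOX genes, 2 of 3 detected arms were called, both higher in BT474 (21.7% of all miRNAs tested were). miR-196a-5p, which targets HOX transcripts, had log2 signals of 10.30, 10.48, 10.30 and 10.14 in BT474 and 7.20, 6.70 and 6.89 in SKBR3 (difference 3.33 ± 0.11, 10.1-fold, adjusted p = 8.99e-06). miR-10b-5p was at 7.54 to 7.77 in BT474 and undetected in SKBR3 (at least 3.39-fold). miR-151a-5p, from an intron of PTK2, stood at 10.59, 10.64, 10.55 and 10.59 in BT474 and 8.32, 7.86 and 7.77 in SKBR3 (2.57 ± 0.12, 5.95-fold). In the list of miR-28, miR-151 and miR-708, 3 of 4 arms were called higher in BT474, against the same 21.7%. However, miR-151a-3p and miR-151b were each undetected on 1 SKBR3 array, which entered at the floor. Their differences were 3.20 ± 0.90 (adjusted p = 0.0292) and 3.46 ± 0.80 (adjusted p = 0.0141), and each lost its call when certain single arrays were left out (miR-151a-3p 5 of 7 arrays, adjusted p up to 0.0895; miR-151b BT474 trastuzumab replicate 1, adjusted p = 0.0539).

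Further miRNAs detected on all BT474 arrays and no SKBR3 array were miR-489, from an intron of the calcitonin receptor gene (8.28 to 8.62, at least 6.07-fold), and miR-4465 (7.38 to 8.12, at least 3.79-fold). miR-4465 has the seed of miR-26, whose members miR-26a-5p (difference 0.20) and miR-26b-5p (0.00) were not called. miR-101-3p, a repressor of EZH2, was at 6.63, 7.68, 8.43 and 8.53 in BT474 and was detected on 1 SKBR3 array at 6.35. With the other SKBR3 arrays at the floor, the difference was 3.72 ± 0.78. Without SKBR3 PBS replicate 2 the adjusted p of miR-101-3p was 0.0548. The neighbours miR-192-5p and miR-194-5p on chromosome 11, known from liver and gut epithelium and named here after their values were seen, were also called higher in BT474. miR-192-5p stood at 8.49 to 8.99 in BT474 and at 6.01 on the 1 SKBR3 array that detected it. With the other SKBR3 arrays at the floor, it differed by 4.55 ± 0.70. No SKBR3 array detected miR-194-5p, which was at least 3.08-fold higher in BT474.

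The miRNAs higher in SKBR3 included 6 that were detected on no BT474 array, a group with limits of 4.80-fold to 23.3-fold on the normalized scale. miR-31-5p, known for its loss in invasive breast cancers, had log2 signals of 8.53, 7.98 and 8.40 in SKBR3 and was not detected on any BT474 array (at least 23.3-fold, adjusted p = 4.72e-06). The other arm, miR-31-3p, stood at 7.07, 5.83 and 6.84 (at least 7.05-fold). miR-129-1-3p was at 7.68, 7.14 and 7.24 (at least 12.1-fold), miR-4653-3p at 6.66, 7.33 and 7.41 (at least 10.3-fold) and miR-934, from an intron of VGLL1, at 6.31, 5.56 and 6.21 (at least 4.80-fold). By the rule that picked this group, every SKBR3 array had signal and every BT474 value was set to the floor.

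The ERBB2 gene itself carries miR-4728. Its 5p arm had log2 signals of 6.76, 7.18 and 6.45 in SKBR3 and was undetected in BT474 (at least 8.20-fold, adjusted p = 7.82e-05). Its 3p arm was detected only on the 2 BT474 PBS arrays, at 7.20 and 5.17 (adjusted p = 0.255). The arms thus appeared on different arrays. With normexp correction of the spots, the difference of the 5p arm was -0.67 and below the fold threshold.

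**Figure D3:**
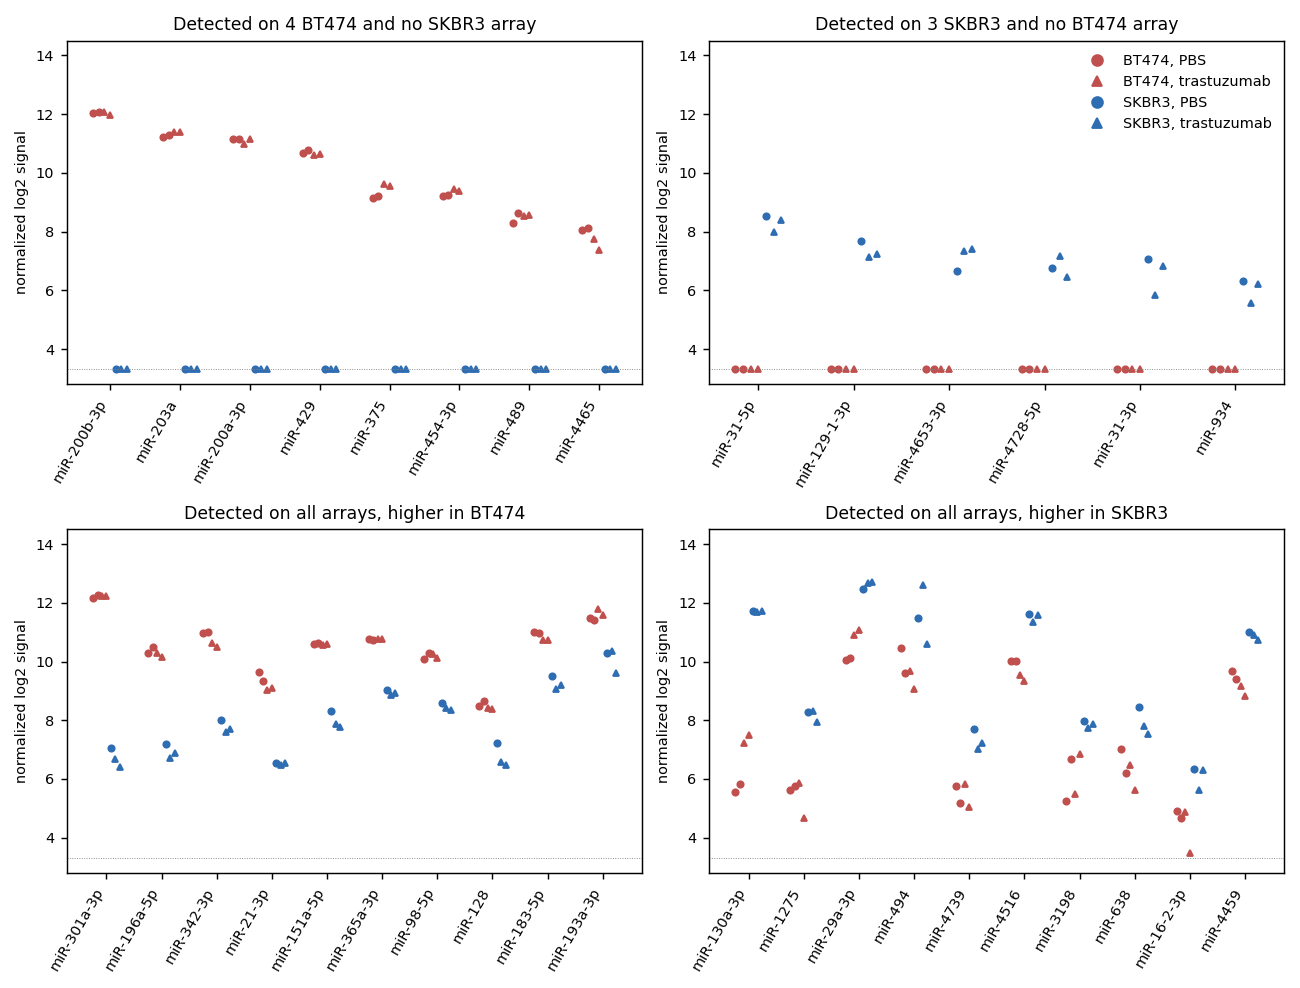
Normalized log2 signal on each of the 7 arrays (red BT474, blue SKBR3, circles PBS, triangles trastuzumab, dotted line the floor) for the miRNAs named by fold change or limit. The upper panels hold miRNAs picked for no detection in the other line, whose arrays therefore lie at the floor of 3.32. The lower panels hold miRNAs picked among those without overlap of the lines, so the lack of overlap follows from the rule.

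All 3 arms with the seed AGCACCA were called higher in SKBR3 (18.8% of all miRNAs tested were). miR-29a-3p, which like its relatives represses collagens and other matrix genes, had log2 signals of 10.05 and 10.12 (PBS) and 10.89 and 11.06 (trastuzumab) in BT474, against 12.46, 12.66 and 12.69 in SKBR3. The difference was -1.97 ± 0.17, or 3.92-fold higher in SKBR3 (adjusted p = 0.000359). miR-29c-3p stood at 11.56, 11.56, 12.15 and 12.27 in BT474 and 13.17, 13.31 and 13.31 in SKBR3 (-1.31 ± 0.13). miR-29b-3p differed by -1.29 ± 0.25 and lost its call without SKBR3 PBS replicate 2, at -0.97. Without normalization between arrays the differences of these 3 were -0.81, -0.24 and -0.21 for miR-29a-3p, miR-29c-3p and miR-29b-3p, in the same direction and under the fold threshold.

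Of the largest differences toward SKBR3 among miRNAs detected on all arrays, several belonged to miRNAs of high number in the registry. miR-1275 had log2 signals of 5.64, 5.75, 5.85 and 4.68 in BT474 and 8.28, 8.32 and 7.96 in SKBR3 (-2.76 ± 0.31, 6.77-fold). On the SKBR3 arrays the lowest detected normalized value was 5.48 to 6.21, and the BT474 values of miR-1275 lay in or below that range. miR-4516 differed by -1.86 ± 0.13, miR-4739 by -1.90 ± 0.28, miR-4459 by -1.68 ± 0.15 and miR-638 by -1.70 ± 0.30. These differences are from quantile normalization. Of the 57 calls higher in SKBR3, 35 held with 75th percentile scaling and 9 under all 3 scalings. The calls of miR-494 and miR-3198 depended on single arrays as well. miR-494, the only detected arm of 79 from the imprinted 14q32 cluster, varied from 10.59 to 12.62 over the SKBR3 arrays (-1.93 ± 0.58, adjusted p = 0.0359). Its call was lost without BT474 PBS replicate 2, BT474 trastuzumab replicate 1 or 2, or SKBR3 PBS replicate 2 (adjusted p 0.0752 to 0.103). miR-3198 (-1.79 ± 0.48, adjusted p = 0.0252) lost its call without BT474 trastuzumab replicate 1 (adjusted p = 0.0813) or without any 1 of the SKBR3 arrays (0.0580 in the fit without trastuzumab replicate 1). miR-16-2-3p (-1.69 ± 0.39) was -0.66 with 75th percentile scaling, 0.27 without normalization, and lost its call without SKBR3 PBS replicate 2 or trastuzumab replicate 2.

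Base composition went with the direction. RefSeq mature sequences were matched to 247 of the 304 tested miRNAs (81.25%). The median share of G and C was 45.6% in the miRNAs higher in BT474, 65.2% in those higher in SKBR3 and 50% in those not called. Among the 141 matched miRNAs detected on all 7 arrays, 45 had at least 60% G and C, a limit chosen after the values were seen, of which 0 were called higher in BT474 and 23 higher in SKBR3 (median difference -1.07). Of the 96 with less, 17 were higher in BT474 and 11 in SKBR3 (median 0.00). The Spearman coefficient of G and C content and difference over these 141 miRNAs, which share the same 7 arrays, was -0.47, and -0.45 with 75th percentile scaling. Likewise, of the 65 miRNAs detected on all arrays and numbered above 1000 in the registry, 34 were higher in SKBR3 and 0 in BT474, against 11 and 21 of the 107 with lower numbers. With 75th percentile scaling 17 of these 34 and 8 of these 11 kept their call. The part of base composition in the line difference was not tested.

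**Figure D4:**
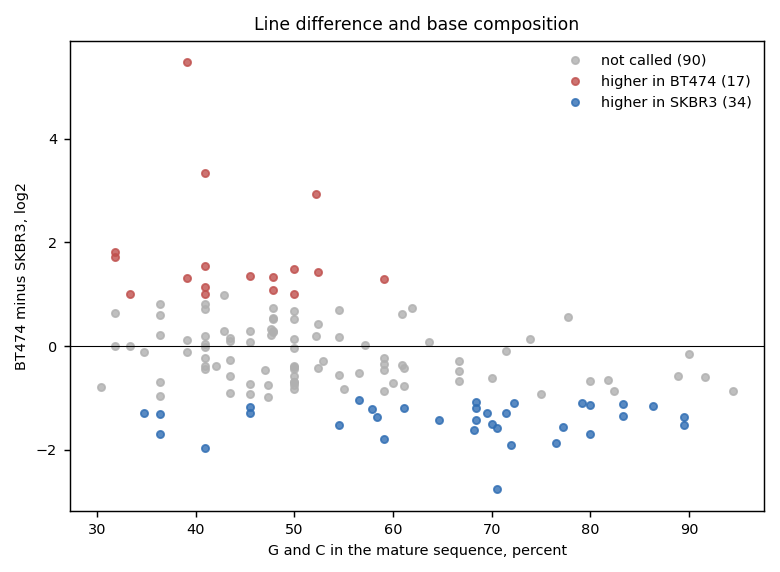
Line difference (BT474 minus SKBR3, log2, vertical axis) against the percentage of G and C in the mature sequence (horizontal axis) for the 141 miRNAs detected on all 7 arrays and matched to RefSeq. Each point is 1 miRNA, and the 17 called higher in BT474 (red) all lie below 60%, whereas 23 of the 34 called higher in SKBR3 (blue) lie at or above it.

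Several families held no call, where 40.5% of all miRNAs tested were called. Of the 8 arms of the miR-17-92 cluster, which promotes the cell cycle, none was called in either direction, and their median difference was 0.12. miR-17-5p, at 11.69 to 11.85 in BT474 and 11.22 to 11.33 in SKBR3, did not overlap but differed by 0.52 only. No arm was called in the paralog clusters miR-106b-25 (0 of 3) and miR-106a-363 (0 of 4). In the latter, miR-19b-3p and miR-92a-3p also have hairpins in miR-17-92 and are counted in both. Nor was any arm called in the miR-181 family (0 of 5), in that of miR-34 and miR-449 (0 of 2) or among the miR-320 miRNAs (0 of 5). The 5 miR-320 miRNAs had differences of -0.83 to -0.62, all with SKBR3 above BT474 on every array, which turned to 0.32 to 0.51 without normalization. In all, 32 miRNAs detected on every array had a 95% interval within 1.5-fold either way. The brightest of them were let-7a-5p (difference 0.21, interval 0.04 to 0.37), let-7f-5p (0.00, -0.19 to 0.19), miR-16-5p (0.29, 0.09 to 0.49), miR-141-3p and let-7b-5p (0.09, -0.17 to 0.34).

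The strongest signals in BT474 came from miR-21-5p, let-7a-5p, miR-16-5p, let-7f-5p and miR-141-3p, and in SKBR3 from miR-5100, miR-4284, let-7a-5p, let-7f-5p and miR-141-3p, as an order of signals that also depends on each probe. miR-5100 (-0.86 ± 0.14) and miR-4284 (-0.76 ± 0.15) were not called. The top signal on every array, miR-4454, was saturated in all its spots and could not be compared. Of the others named here, miR-21-5p was saturated in nearly all spots in BT474, and up to 50% of the spots of let-7a-5p, let-7f-5p, miR-16-5p and miR-141-3p were saturated on some BT474 arrays, and of miR-5100 and miR-4284 on arrays of both lines. The part of saturation in their differences was not tested.

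In the let-7 family, which restrains RAS and HMGA2, 2 of 9 arms were called, both higher in BT474, close to the 21.7% of all miRNAs tested. miR-98-5p stood at 10.09 to 10.30 in BT474 and 8.36 to 8.59 in SKBR3 (1.72 ± 0.10), and let-7i-5p differed by 1.01 ± 0.08. The latter fell just under the fold threshold without BT474 PBS replicate 1 or 2, SKBR3 PBS replicate 2 or SKBR3 trastuzumab replicate 1 (0.96 to 1.00). The miR-15/16 list had 8 tested arms with miR-497-5p higher in BT474 (1.42 ± 0.13) and miR-16-2-3p higher in SKBR3, and miR-195-5p, the neighbour of miR-497-5p, just under the threshold (1.00 ± 0.10, 1.99-fold). Of 6 tested arms in the miR-23/27/24 clusters only miR-24-1-5p was called. It was detected on 3 BT474 arrays alone, the lines overlapped, and its call was lost with 75th percentile scaling (adjusted p = 0.0545), while miR-24-3p differed by 0.69 and miR-27a-3p by 0.42. miR-148a-3p (1.14 ± 0.18) was 1 of 2 called in the family of miR-148 and miR-152, and miR-101-3p was 1 of 3 in the list of miR-26 and miR-101. miR-128 (1.65 ± 0.13) was another miRNA detected on all arrays and higher in BT474. Members of these families are close in sequence, and sharing of signal between their probes was not tested.

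The miR-30 family split. miR-30d-5p was higher in BT474 (1.15 ± 0.12) and miR-30a-5p, at 7.01, 6.98, 7.96 and 8.02 in BT474 and 8.83, 8.69 and 8.76 in SKBR3, was higher in SKBR3 (-1.18 ± 0.25). The latter was -0.98 with 75th percentile scaling, -0.04 without normalization and -0.74 without SKBR3 PBS replicate 2. The other 4 tested arms of the family were not called.

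In the list of miRNAs known to target HER family receptors, 4 of 7 tested arms were called higher in BT474 and 1 higher in SKBR3 (21.7% and 18.8% of all miRNAs tested). The list takes both arms of each hairpin. miR-7-1-3p and miR-125a-3p are thus counted among these calls whether or not that arm targets a receptor. miR-205-5p is given above. miR-125b-5p, which targets ERBB2 and ERBB3, had log2 signals of 10.12, 10.20, 10.39 and 10.34 in BT474 and 9.50, 9.16 and 9.09 in SKBR3 (1.01 ± 0.14, adjusted p = 0.00246). It fell to 0.93 to 0.98 without BT474 trastuzumab replicate 1 or 2 or SKBR3 trastuzumab replicate 1 or 2. miR-7-5p, which targets EGFR, was at 8.76 and 8.95 on the PBS arrays of BT474 and at 7.50 and 7.52 on its trastuzumab arrays, against 7.04 to 7.07 in SKBR3. Its difference of 1.00 ± 0.30 (adjusted p = 0.0369) lost its call without any 1 of the 7 arrays and with a replicate block. miR-7-1-3p was detected in BT474 alone with a limit under 1. miR-125a-3p was detected on all SKBR3 arrays and 1 BT474 array. With the other BT474 arrays at the floor it differed by -2.35 ± 0.44, whereas its partner miR-125a-5p differed by -0.57 and was not called. In the list of miR-99/100 and miR-125, 1 of 6 arms was higher in each line, these being miR-125b-5p and miR-125a-3p.

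Markers of other cell types were mostly absent. None of 9 stromal arms, 4 neuron and liver arms or 44 arms of the placental C19MC cluster was detected on any array. Of 11 blood cell arms 1 was detected, with a summed signal before normalization of at most 57.3 in BT474 and 0 in SKBR3, and it was not called. The endothelial miR-126-3p was undetected on BT474 PBS replicate 1, stood at 5.23, 5.07 and 5.33 on the other 3 BT474 arrays and was undetected in SKBR3. It was called at an adjusted p = 0.0497, and not with 75th percentile scaling (adjusted p = 0.0578). Of the 7 muscle arms, 3 were detected, all in BT474 alone, with a summed signal of 231 to 806 on its arrays. miR-1 stood at 6.78 and 6.99 on the PBS and 7.88 and 7.91 on the trastuzumab arrays of BT474 (at least 2.81-fold), and miR-133b at 6.4, 6.48, 7.48 and 7.36 (at least 2.04-fold).

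The line difference was then taken within each treatment, which is also within each slide row. In the PBS arrays (2 against 1) 118 miRNAs were called (38.8%), 65 higher in BT474 (21.4%) and 53 higher in SKBR3 (17.4%), and in the trastuzumab arrays (2 against 2) 124 (40.8%), 65 higher in BT474 and 59 higher in SKBR3 (19.4%). Both treatments shared 85 calls of the same direction, and 2 miRNAs were called in opposite directions. The difference between the treatments was tested as the interaction of line and treatment and was called for 32 miRNAs (10.5%), and for 21 with the replicate number as a block. It was larger, toward BT474, after trastuzumab for 17 (5.59%) and after PBS for 15 (4.93%). Of the 32, 10 were detected on all 7 arrays, 9 were also called between the lines and 18 had estimates of opposite sign in the treatments. The PBS side of each of these tests rests on the single array SKBR3 PBS replicate 2, which is assumed to vary like the other groups.

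miR-130a-3p was called both between the lines and in the interaction. Its line difference was -6.04 in the PBS arrays and -4.36 in the trastuzumab arrays, a change of 1.68 ± 0.23 (adjusted p = 0.0222). The BT474 values differed between the treatments (5.56 and 5.83 against 7.22 and 7.50), and the SKBR3 values lay within 0.05 of each other. miR-30a-5p went from -1.83 to -0.74 (1.1 ± 0.09, adjusted p = 0.00663) and miR-7-5p from 1.82 to 0.46 (-1.36 ± 0.13, adjusted p = 0.0099). miR-424-5p, not called between the lines, went from -1.68 to -0.47 (1.21 ± 0.15, adjusted p = 0.0179). miR-205-5p and miR-1, detected in BT474 alone, had interaction terms of 1.11 ± 0.12 (adjusted p = 0.0138) and 1.01 ± 0.14 (adjusted p = 0.0223). The 5 miRNAs with the smallest adjusted p-values of the interaction were detected in 1 group alone, with all other arrays at the floor. miR-499a-5p was detected only on the trastuzumab arrays of BT474, at 6.80 and 6.76, and miR-184, miR-3940-5p, miR-5581-5p and miR-5001-5p only on SKBR3 PBS replicate 2, at 6.96, 6.80, 6.59 and 6.52. For those on SKBR3 PBS replicate 2 the fit reproduces that single array exactly. Their p-values therefore measure no spread between replicates.

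**Figure D5:**
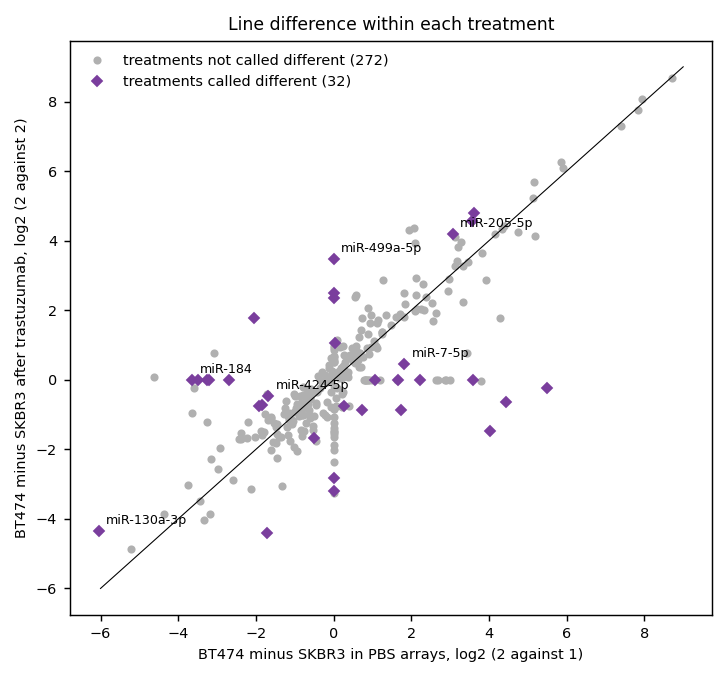
Line difference (BT474 minus SKBR3, log2) in the PBS arrays (horizontal axis, 2 against 1) and in the trastuzumab arrays (vertical axis, 2 against 2) for 304 miRNAs. Diamonds are the 32 whose differences were called unlike between the treatments, and the line marks equal differences. miR-130a-3p lies at -6.04 and -4.36, and miR-499a-5p at 0.00 and 3.46.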

How the data were processed

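Total RNA of the cells was labelled with Cy3 and hybridized to 1-colour Agilent arrays of human miRNAs, 30 spots per miRNA, all on 1 slide. The authors deposited spot intensities as Feature Extraction 11.5.1.1 wrote them, per the file headers: summed signals per miRNA with a detection flag (0.1 where not detected), processed spot intensities, and spot and background medians, with no normalization between arrays. A table of log2 values deposited by the authors was normalized within each line and was not used. Groups came from the series labels. Summed signals of the 7 distinct arrays were quantile normalized with a floor of 10 and log2 transformed, and tested with limma 3.58.1 (lmFit, eBayes) in R 4.3.3, with line and treatment as terms, over 304 of 2006 miRNAs not at the floor on all arrays. The within-treatment differences and the interaction came from a fit of the 4 groups. The residual SD was 0.163 (log2, median over miRNAs detected on all 7 arrays).

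Replicate numbers, which follow the slide column within a line, did not pair samples in the main fit and entered only as the replicate block of an alternative. Deviations of the replicates from the group means correlated between groups at 0.297, 0.148 and 0.119. The detection limits, not counts, set the depth. miRNAs were named by fold change, by limit, by brightness, by membership of lists of families, clusters and markers, and by the smallest p of the interaction. The lists were matched by hairpin name and hold both arms. The members and lists were chosen with earlier results of these data known. Sequences came from RefSeq (GRCh38.p14). The files hold no spot means, so the planned normexp alternative (offset 50) used spot medians. Other alternatives were 75th percentile scaling, no normalization, processed signals, a floor of 1, each array left out, detection filters, other thresholds, no treatment term, a replicate block, the methods' t-test and the shared file kept. The scripts were tested on simulated data with known changes. Python 3.11.15, pandas 2.3.3, numpy 2.4.6 and matplotlib 3.10.9 made tables and figures.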

Additional observations from a re-analysis of the deposited data

Results flagged for a closer look

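On the 4 BT474 arrays, 110 quantities were examined, these being named miRNAs and the number of detected miRNAs. For 10 of them, all named miRNAs, 1 array stood apart from the other 3, by the gap to the nearest array as a share of the whole range. About 1 in 20 groups passes this limit by chance. The share was 1.0 for miR-365a-3p, miR-200a-3p, miR-141-3p, miR-92a-3p, miR-25-3p, miR-34a-5p and miR-320d, each with 3 arrays at the same rank and so at the same normalized value. It was 0.832 for miR-16-2-3p (trastuzumab replicate 2 at 3.49, the others at 4.68 to 4.92), 0.872 for miR-99a-5p (trastuzumab replicate 2 at 10.89, the others at 10.64 to 10.67) and 0.873 for miR-34b-5p (PBS replicate 1 at 5.85, the others at 6.59 to 6.70).

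The line difference was unlike between the treatments, by the interaction term, for 11 named miRNAs. The term (trastuzumab less PBS, log2) was 1.68 for miR-130a-3p, 1.11 for miR-205-5p, 1.1 for miR-30a-5p, 1.21 for miR-424-5p, -1.36 for miR-7-5p and 1.01 for miR-1. It was 3.46 for miR-499a-5p, 3.20 for miR-5001-5p, 3.27 for miR-5581-5p, 3.48 for miR-3940-5p and 3.63 for miR-184, which were each detected in 1 group alone. Except for miR-499a-5p that group was the single array SKBR3 PBS replicate 2, so that no spread between replicates stands behind the term.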

How the results depend on the processing

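Of 943 recalculations of the 57 named and called miRNAs, 808 kept direction and call, 134 kept the direction and lost the call, and 1 reversed. Keeping the shared file under its SKBR3 label took the calls of all 57. It left 0 calls between the lines (0 in each direction and 0 over the lists, 143 at an unadjusted p under 0.05, 90 of them with the fold, and 0 by the methods' t-test after adjustment), 0 within PBS, 11 within trastuzumab, 5 interactions and a detection difference of 34.0, since an array of BT474 then counts as SKBR3. With 75th percentile scaling 35 miRNAs were higher in SKBR3. Without normalization 112 were higher in BT474 and 9 in SKBR3, the lists held 73 calls (44 in the main fit), and miR-16-2-3p (0.27), miR-18b-5p (1.05) and miR-19a-3p (1.01) reversed. Normexp gave 58 calls (38 and 20), 72 within PBS, 64 within trastuzumab and 19 interactions. Processed spot signals gave 90 higher in SKBR3, 290 within PBS and 179 interactions. The cause was not tested.

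Testing only miRNAs detected on all 7 arrays left 66 calls (21 higher in BT474, 23 over the lists), fewer miRNAs being tested. At any fold there were 186 calls, 98 higher in SKBR3. With the replicate block there were 121 calls between the lines, of which 119 were shared with the main fit, and 21 interactions; among the named miRNAs only miR-7-5p lost its call. Without 1 array the calls numbered 110 to 122 (59 to 66 higher in BT474, 51 to 56 in SKBR3), 104 to 113 within PBS, 114 to 122 within trastuzumab, 24 to 45 interactions and 38 to 42 over the lists, and the detection difference was 40.75 to 49.25, highest without SKBR3 trastuzumab replicate 1. Without SKBR3 PBS replicate 2 neither a PBS difference nor an interaction could be fitted. After normalization the weakest detectable signals lay higher on the SKBR3 arrays, which limits what can be said of miRNAs found in BT474 alone. Those of the BT474 arrays lay at a log2 of 3.32 to 4.34, so that the limits of miRNAs found in SKBR3 alone rest on the normalization.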
